A study of Mus musculus with 6 samples.

Results

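A set of 10 genes of the epithelial-mesenchymal transition (EMT) was followed in breast tissue of mice given isotoosendanin (ITSN) or its vehicle. They are the transcription factor genes Snai1, Twist1, Twist2, Zeb1, Zeb2 and Prrx1 and the mesenchymal genes Vim, Fn1, Cd44 and S100a4, chosen by name. All 10 were among the 13823 genes of the deposited table, and 9 of them stood among the 12257 genes that reached 1 FPKM or more in 3 or more libraries. FPKM counts sequenced fragments relative to transcript length and to the size of the library, so levels of different genes can be set side by side per length.

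The 6 libraries came from 6 Balb/c mice that the labels call male. Of these, 3 received ITSN by gavage at 1 mg/kg per day and 3 received vehicle, labelled DMSO (dimethyl sulfoxide). The mice's age, the length of dosing and whether the breast tissue held a tumour were not given in the sources used here. Isotoosendanin is a plant limonoid, and the series title names the TGF-β type I receptor as its target and TGF-β-induced EMT in triple-negative breast cancer as its setting. The comparison asks whether EMT genes differed between the mice given ITSN and the mice given vehicle.

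In EMT, epithelial cells lose their junctions and gain the shape and motility of mesenchymal cells. Snai1, Zeb1 and Zeb2 encode zinc finger repressors that bind E-boxes of epithelial genes such as Cdh1, the gene of E-cadherin. Twist1 and Twist2 encode basic helix-loop-helix factors, and Prrx1 encodes a homeobox factor of limb and craniofacial mesenchyme. Vim (vimentin, an intermediate filament protein), Fn1 (fibronectin, a matrix glycoprotein), Cd44 (the hyaluronan receptor) and S100a4 (a calcium-binding protein also called fibroblast-specific protein) are genes that EMT studies read as its output. Fibroblasts and macrophages express several of them too, and in whole tissue fewer cells of a type and less RNA per cell cannot be told apart.

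The libraries were not alike. Vehicle 1 stood apart from the other 5 on the first principal component of the tested genes, at 43.2, where the others lay between -20.1 and 4.63. Mitochondrially encoded transcripts took 13.5% to 15.6% of the summed FPKM in ITSN libraries and 17.5%, 22.4% and 32.3% in vehicle 3, 2 and 1. Summed markers of fibroblasts (9 of 10 listed) were at 115 to 179 FPKM in ITSN libraries, against 46.8 FPKM in vehicle 1 and 131 and 170.3 FPKM in vehicle 2 and 3. Summed macrophage markers (12 of 12 listed) were at 571 to 607 FPKM in ITSN libraries, against 226, 528 and 657 FPKM in vehicle 1, 2 and 3. Neutrophil markers (8 of 9 listed, Ly6g not among them) summed to 77.2 to 125 FPKM in ITSN libraries. The sum was highest in vehicle 1, at 237 FPKM, with 131 and 80.6 FPKM in vehicle 2 and 3. S100a8 and S100a9 made up most of it in vehicle 1, at 65.4 and 132 FPKM. Of the 8 markers, all but Csf3r and Camp were highest in vehicle 1. Those 2 were highest in ITSN 3, at 3.89 and 1.03 FPKM, against 3.37 and 0.976 FPKM in vehicle 1. Skeletal muscle markers (14 of 15 listed) summed to 63.0, 115 and 22.6 FPKM in ITSN 1, 2 and 3, against 10.1, 26.9 and 29.0 FPKM in vehicle 1, 2 and 3, and the myosin gene Myh4 was at 9.39 and 20.9 FPKM in ITSN 1 and 2 and at most 0.040 FPKM in the other 4 libraries. Of 11 luminal mammary markers 6 were listed, led by Krt8 and Krt18; Csn2, Wap, Elf5, Prlr and Foxa1 were not listed. Of 5 basal mammary markers only Krt14 was listed, at no more than 2.32 FPKM in any library, and no B cell marker of 5 was. Xist, which is transcribed from the inactive X chromosome, stood at 25.1 to 28.5 FPKM in ITSN libraries and 20.1 to 29.3 FPKM in vehicle libraries, and none of 4 Y-linked genes was listed, which goes against the label male.

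By level, Fn1 stood highest among the members, with a mean of 403 FPKM over the 6 libraries and its lowest library, vehicle 3, at 325 FPKM. Vim followed at 271 FPKM and S100a4 at 237 FPKM, and the values of Vim and S100a4 overlapped across libraries. Each of the 3 lay above more than 99.5% of the tested genes, and so did Krt18 and Krt8 (means of 262 and 210.3 FPKM), the keratin pair of simple epithelium. Cd44 came next at 51.0 FPKM, apart from both neighbours in every library. Twist1 at 18.0 FPKM and Zeb2 at 13.5 FPKM were the most abundant of the transcription factors; their ranges overlapped, but Twist1 was above Zeb2 in each of the 6 libraries. Snai1 (4.12 FPKM) overlapped with Prrx1 (3.25 FPKM), and Prrx1 with Zeb1 (2.28 FPKM). Twist2, at 0.542 FPKM, lay below Zeb1 in every library. Cdh1, at a mean of 5.45 FPKM, stood far below the keratins.

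**Figure D1:**
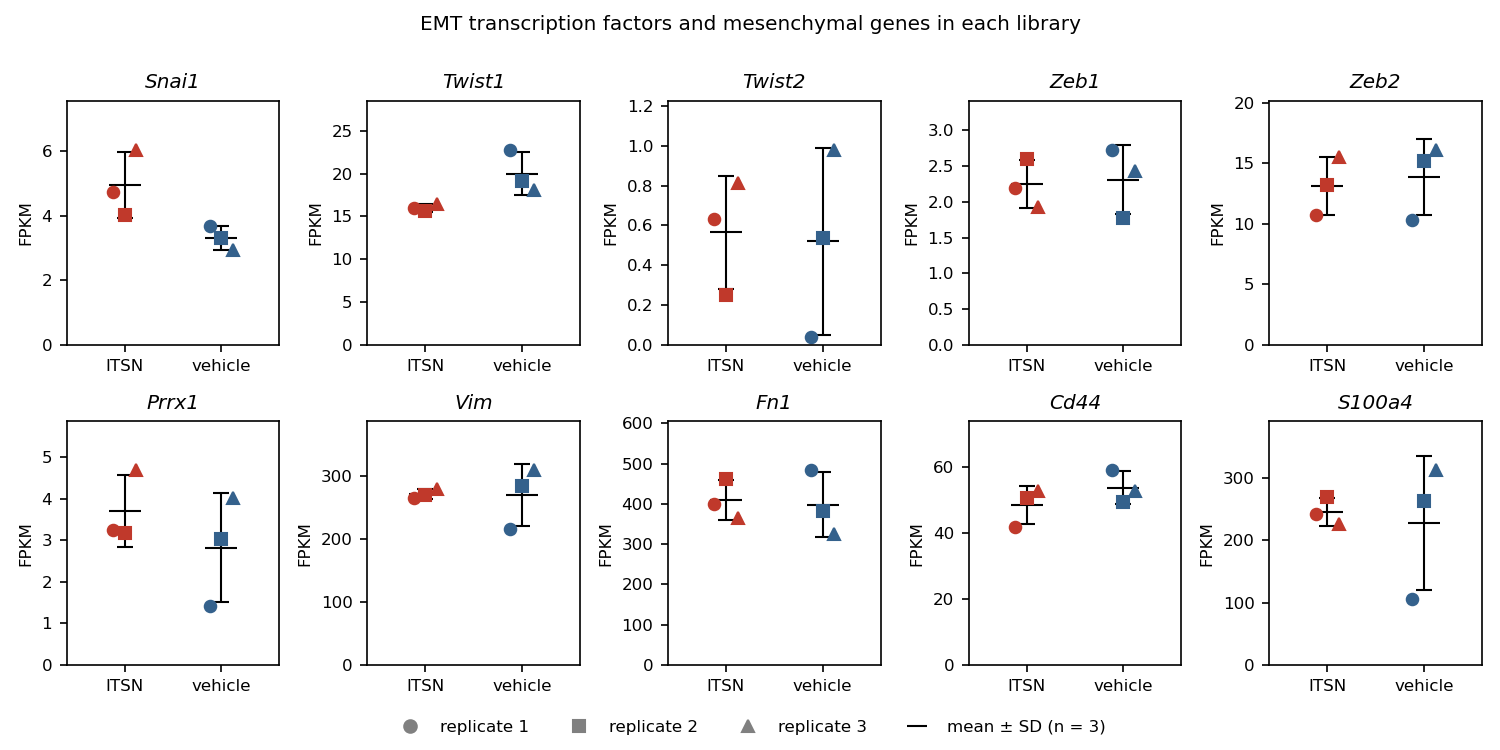
FPKM of each member (vertical axes, from 0) in the 3 ITSN libraries and the 3 vehicle libraries; symbols mark the replicate number, and bars give the mean ± SD. The groups are apart for Snai1 and Twist1 and overlap for the other 8 members, and vehicle 1 (circle) is the lowest library for Twist2, Zeb2, Prrx1, Vim and S100a4.

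No member passed limma's threshold, a Benjamini-Hochberg adjusted p under 0.05 over all tested genes, where 7 of 12257 genes (0.0571%) did, 0.049% higher and 0.00816% lower in ITSN. At an unadjusted p under 0.05 stood 2 of the 9 tested members, Snai1 and Twist1, against 20.9% of all tested genes. These were also the 2 members whose groups did not overlap, against 29.1% of all tested genes (21.8% higher and 7.37% lower in ITSN). Both shares are close to, or below, what all genes gave. Of the 9, 5 had a higher fitted mean in ITSN and 4 a lower one, where 64.0% of all tested genes were higher. Their median log2 change was 0.03, against 0.09 over all tested genes. Fold changes here are differences of mean log2(FPKM + 1), which understates the change of low genes.

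Snai1, the gene of the Snail repressor, lies on chromosome 2 at 167538195 to 167542814 (mm10, plus strand) and has 1 annotated transcript. It stood at 4.75, 4.03 and 6.05 FPKM in ITSN 1, 2 and 3, against 3.69, 3.30 and 2.93 FPKM in vehicle 1, 2 and 3. Every ITSN library was above every vehicle library, and ITSN 3 was the highest. The means were 4.94 ± 1.03 FPKM in ITSN and 3.31 ± 0.377 FPKM in vehicle (SD, n = 3 each). The exact two-sided permutation p was 0.1, below which 3 against 3 libraries cannot go. On the log2 scale the change was 0.45 (SE 0.15, 95% interval 0.10 to 0.81, limma adjusted p = 0.16). Without vehicle 1 the change was 0.52 (limma adjusted p = 0.093), and after a smooth trend on transcript GC content was removed from each library it was 0.16 (limma adjusted p = 0.58).

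Snail is known to bind the E-box CAGGTG, also in its own promoter, and the 250 bases before the start sites of Snai1, Krt8 and Krt18 are shown because each held this motif and Vim is set against Krt18 here. RefSeq windows of 300 bases (250 before to 50 after the start, build GRCm38.p6, the assembly also called mm10) were searched for CAGGTG on both strands. It was in 20.2% of all 32851 windows. Of the 8 members with a window, which had 11 windows in all, Snai1 alone held it, and the windows of Twist1, Twist2, Zeb2, Prrx1, Vim, Cd44 and S100a4 did not. The match lay 126 bases before the start in Snai1, 111 in Krt8 and 214 in Krt18, read as CACCTG on the gene's strand; it is a match of letters, and no binding was measured. Epcam, another epithelial gene, held it 2 times and is not shown. Besides the members, only Krt8, Krt18 and Epcam were read gene by gene. How often epithelial genes hold the motif was therefore not tested. Capitals mark the E-box in these sequences, each 5′ to 3′ on the strand of the gene.
Snai1, chr2:167537945-167538194, plus strand: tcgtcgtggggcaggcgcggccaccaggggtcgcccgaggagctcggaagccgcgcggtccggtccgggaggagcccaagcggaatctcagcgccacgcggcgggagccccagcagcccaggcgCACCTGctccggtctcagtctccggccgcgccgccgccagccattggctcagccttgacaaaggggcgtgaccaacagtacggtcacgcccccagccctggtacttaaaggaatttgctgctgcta
Krt8, chr15:102004343-102004592, minus strand: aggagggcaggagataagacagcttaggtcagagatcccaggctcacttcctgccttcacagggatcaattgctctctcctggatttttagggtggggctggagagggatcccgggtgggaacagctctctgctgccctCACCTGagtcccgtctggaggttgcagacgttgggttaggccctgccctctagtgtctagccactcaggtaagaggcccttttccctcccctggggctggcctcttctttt
Krt18, chr15:102027966-102028215, plus strand: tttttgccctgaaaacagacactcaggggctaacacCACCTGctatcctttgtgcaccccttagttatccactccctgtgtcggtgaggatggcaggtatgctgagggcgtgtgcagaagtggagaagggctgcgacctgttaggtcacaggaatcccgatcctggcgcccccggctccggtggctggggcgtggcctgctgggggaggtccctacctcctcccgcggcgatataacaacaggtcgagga

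Twist1 lies on chromosome 12 at 33957671 to 33959829 (plus strand), also with 1 annotated transcript. It stood at 15.99, 15.6 and 16.5 FPKM in ITSN 1, 2 and 3, against 22.8, 19.1 and 18.1 FPKM in vehicle 1, 2 and 3. The ITSN libraries lay within 1.06-fold of each other, and all were below the lowest vehicle library. The means were 16.01 ± 0.439 FPKM in ITSN and 20.0 ± 2.48 FPKM in vehicle (SD, n = 3 each), with an exact two-sided permutation p of 0.1. The log2 change was -0.30 (SE 0.11, 95% interval -0.55 to -0.04, limma adjusted p = 0.18). It was -0.20 without vehicle 1 (limma adjusted p = 0.12), -0.58 after removal of the GC trend (adjusted p = 0.20) and -0.49 with both (adjusted p = 0.065), which was the smallest adjusted p of any member in any setting.

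Twist2, the paralog of Twist1, lies on chromosome 1 at 91801461 to 91848028 and did not pass the filter, so it has no fitted test. It was at 0.630, 0.251 and 0.811 FPKM in ITSN 1, 2 and 3, against 0.0402, 0.538 and 0.981 FPKM in vehicle 1, 2 and 3. The groups overlapped, and vehicle 1 was close to 0 (exact two-sided permutation p = 0.9). The plain difference of its log2 means was 0.07, and its sign turned without vehicle 1 (-0.17), without ITSN 3 (-0.04) and with the GC trend removed (-0.01). Its exons share 1477 bases with the antisense gene Gm29100. Whether counting used strand was not given in the sources used here; its value is therefore uncertain.

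Zeb1 lies on chromosome 18 at 5591860 to 5775467. It stood at 2.20, 2.60 and 1.93 FPKM in ITSN 1, 2 and 3, against 2.73, 1.78 and 2.43 FPKM in vehicle 1, 2 and 3, and the groups overlapped. Its log2 change was -0.02 (SE 0.14, 95% interval -0.37 to 0.32, limma adjusted p = 0.94). The sign turned with single libraries: it was 0.07 without vehicle 1, 0.01 without vehicle 3, 0.05 without ITSN 3 and -0.15 without vehicle 2.

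Zeb2 lies on chromosome 2 at 44983632 to 45117395 on the minus strand. It stood at 10.7, 13.2 and 15.5 FPKM in ITSN 1, 2 and 3, against 10.3, 15.2 and 16.1 FPKM in vehicle 1, 2 and 3. Each group had 1 low library, ITSN 1 and vehicle 1, and the groups overlapped. Its log2 change was -0.06 (SE 0.20, 95% interval -0.54 to 0.41, limma adjusted p = 0.89), and it was -0.25 without vehicle 1, 0.07 without ITSN 1, 0.01 without vehicle 2 and 0.05 without vehicle 3. The antisense gene Zeb2os, which shares 653 exon bases with it, was listed at 0.700 to 0.961 FPKM in ITSN and 0.725 to 0.934 FPKM in vehicle, far below Zeb2 itself.

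Prrx1 lies on chromosome 1 at 163245119 to 163313710. It stood at 3.23, 3.16 and 4.69 FPKM in ITSN 1, 2 and 3, against 1.41, 3.02 and 4.01 FPKM in vehicle 1, 2 and 3. Vehicle 1 was the low library and the groups overlapped. The log2 change was 0.35 (SE 0.28, 95% interval -0.32 to 1.01, limma adjusted p = 0.53), and it was 0.05 without vehicle 1 (adjusted p = 0.88) and 0.58 without vehicle 3 (adjusted p = 0.22). Prrx1 was low in vehicle 1 together with the fibroblast markers, and there Dcn, a fibroblast proteoglycan gene, was at 0.95 FPKM, against 4.33 and 6.11 FPKM in vehicle 2 and 3; 8 of the 9 listed fibroblast markers were lowest in vehicle 1, while Pdgfra was highest there, at 14.8 FPKM against 6.38 to 10.7 FPKM in ITSN and 9.35 and 6.82 FPKM in vehicle 2 and 3. Over all tested genes, vehicle 1 was the lowest library for 52.1%. The part of cell make-up in the Prrx1 value was not tested.

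Among the mesenchymal genes, Vim (chromosome 2, 13573927 to 13582826) stood at 266, 270.3 and 281 FPKM in ITSN 1, 2 and 3. In vehicle 1, 2 and 3 it was at 216, 285 and 310.3 FPKM. The ITSN libraries were within 1.05-fold of each other and lay inside the vehicle range. The log2 change was 0.03 (SE 0.15, 95% interval -0.34 to 0.39, limma adjusted p = 0.94), and it was -0.13 without vehicle 1 (adjusted p = 0.31), -0.08 after trimmed-mean scaling and -0.06 when mitochondrial genes were removed and the rest rescaled.

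Fn1 (chromosome 1, 71585520 to 71653200) stood at 401, 462 and 364 FPKM in ITSN 1, 2 and 3, against 484, 383 and 325 FPKM in vehicle 1, 2 and 3. The groups overlapped, and vehicle 1 was the highest library, the opposite of its place for Vim. The log2 change was 0.05 (SE 0.18, 95% interval -0.37 to 0.48, limma adjusted p = 0.89). Single libraries moved it to -0.04 (ITSN 2 left out), -0.08 (vehicle 3 left out) and 0.21 (vehicle 1 left out). It was -0.06 with the GC trend removed and -0.05 with trimmed-mean scaling. Apol7d shares 292 exon bases with Fn1 on the opposite strand and was not listed.

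Cd44 (chromosome 2, 102811141 to 102901665) stood at 41.8, 50.5 and 52.6 FPKM in ITSN 1, 2 and 3. It was at 59.0, 49.4 and 52.6 FPKM in vehicle 1, 2 and 3. ITSN 1 was the lowest library, vehicle 1 the highest, and the groups overlapped. The log2 change was -0.15 (SE 0.12, 95% interval -0.44 to 0.14, limma adjusted p = 0.53), and it ran from -0.22 to -0.05 when single libraries were left out. The table gives 1 value per gene, so the standard and variant isoforms of Cd44, whose balance is known to shift in EMT, were not resolved.

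S100a4 (chromosome 3, 90603771 to 90606045) stood at 243, 269.7 and 225 FPKM in ITSN 1, 2 and 3, against 106, 263 and 313 FPKM in vehicle 1, 2 and 3. Vehicle 1 was far below the other 5 libraries, and the groups overlapped. The log2 change was 0.25 (SE 0.39, 95% interval -0.67 to 1.17, limma adjusted p = 0.76). It was -0.23 without vehicle 1 (adjusted p = 0.25) and 0.55 without vehicle 3 (adjusted p = 0.37), so its sign rested on vehicle 1. The macrophage gene Lyz2 was low in the same library, at 99.3 FPKM against 251 and 312 FPKM in vehicle 2 and 3 and 255 to 279 FPKM in ITSN. Of the 12 macrophage markers 10 were lowest there, where 52.1% of all tested genes were, the exceptions being Itgam and Mertk. Itgam was at 10.2 FPKM in vehicle 1, against 6.31 to 7.43 FPKM in ITSN and 14.1 and 18.3 FPKM in vehicle 2 and 3. Mertk was at 4.13 FPKM in vehicle 1, against 3.93 to 5.35 FPKM in ITSN and 4.65 and 5.88 FPKM in vehicle 2 and 3. The part of cell make-up in the S100a4 value was not tested. Gm42674, which shares 302 exon bases with S100a4 on the same strand, was not listed.

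The vehicle libraries were more spread than the ITSN libraries for 8 of the 10 members, the exceptions being Snai1 and Cd44. Over all tested genes the median ratio of the highest to the lowest library was 1.18 in ITSN and 1.37 in vehicle. Among the members it reached 3.23 in ITSN and 24.4 in vehicle for Twist2, which was near 0 in vehicle 1. S100a4 had a ratio of 1.20 in ITSN and 2.95 in vehicle, and Prrx1 one of 1.48 in ITSN and 2.84 in vehicle. Vehicle 1 was the lowest of the 6 libraries for 4 of the 9 tested members and the highest for another 4. Over all tested genes it was the lowest for 52.1% and the highest for 14.6%.

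**Figure D2:**
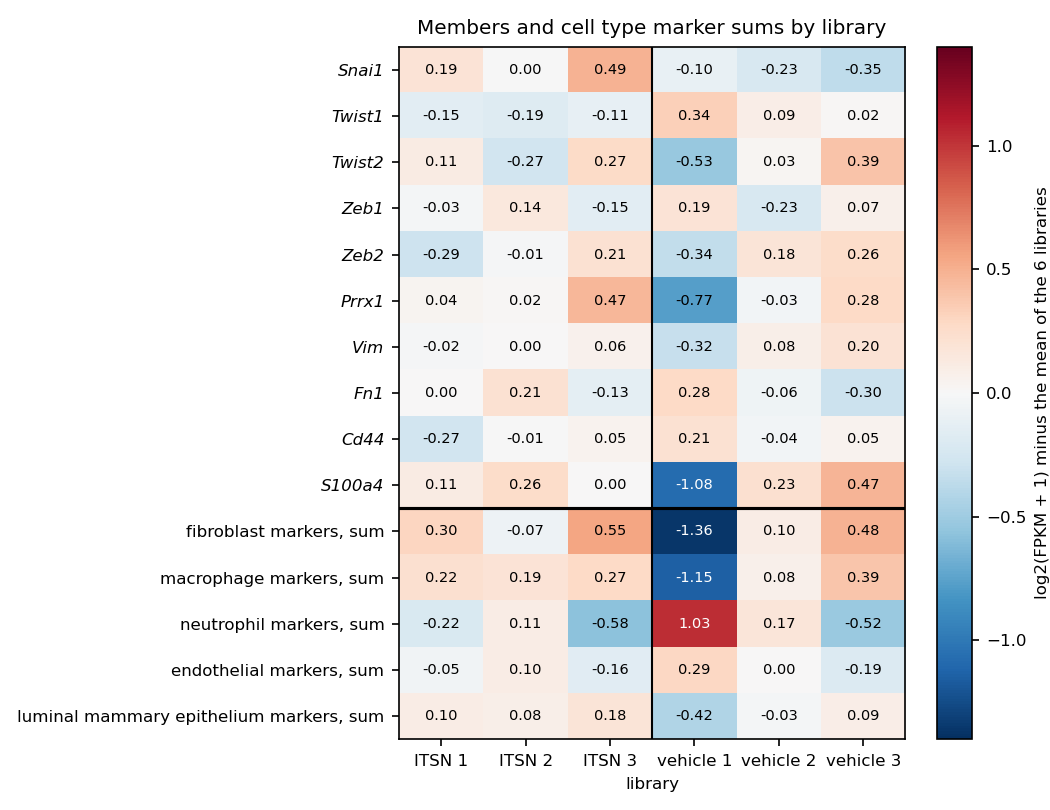
Colour and numbers give log2(FPKM + 1) minus the mean of the 6 libraries for each member (rows above the line) and for summed cell type markers (rows below it), by library. In vehicle 1, S100a4 (-1.08) and Prrx1 (-0.77) were low together with the fibroblast and macrophage marker sums, while Twist1 (0.34) and Fn1 (0.28) were high.

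The change of a gene followed the GC content of its transcript across all tested genes. The median log2 change was -0.07 among the 490 genes lowest in GC (median 36.7%) and 0.46 among the 490 highest (61.0%). Snai1 and Twist1 are the members highest in GC, at 59.8% and 59.3% of their longest transcript, and they had changes of opposite sign. Genes within 1 percentage point of the GC content of Snai1 (431 genes) had a median log2 change of 0.42, close to the 0.45 of Snai1 itself. Genes as near to Twist1 (513 genes) had a median of 0.41, against -0.30 for Twist1. For Fn1, at 53.5% GC, the median of its neighbours in GC was 0.21, and for Vim, at 46.5%, it was 0.03. What part of any of these values comes from GC content was not tested.

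**Figure D3:**
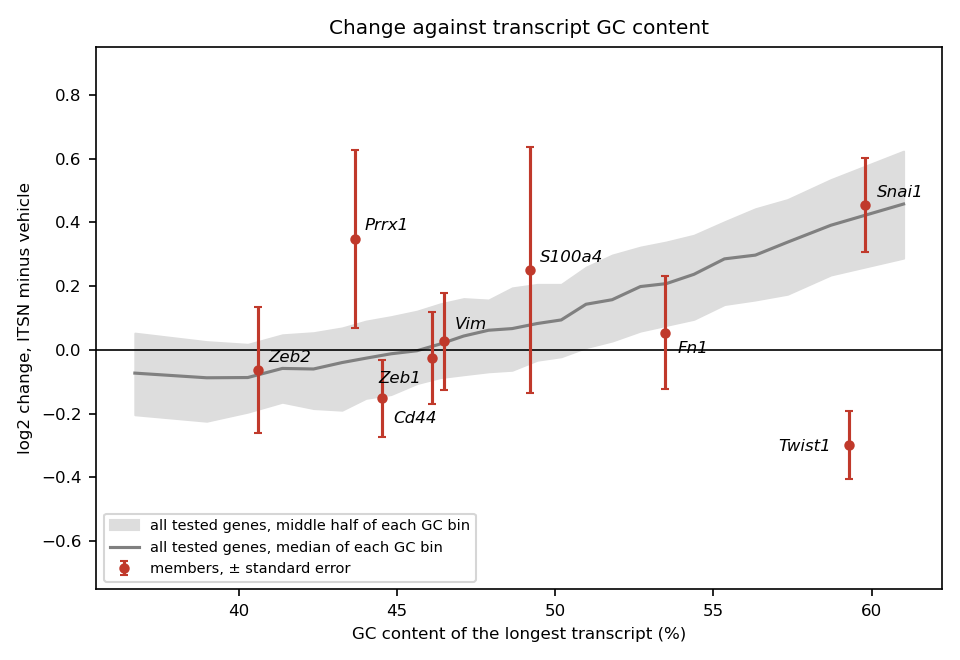
Log2 change, ITSN minus vehicle (vertical axis), against GC content of the longest transcript in percent (horizontal axis); the grey line and band give the median and interquartile range of all tested genes in 25 equal bins, and red points give the members ± standard error. Snai1 lay close to the median of genes of its GC content, within the band, and Twist1 lay below the band.

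**Figure D4:**
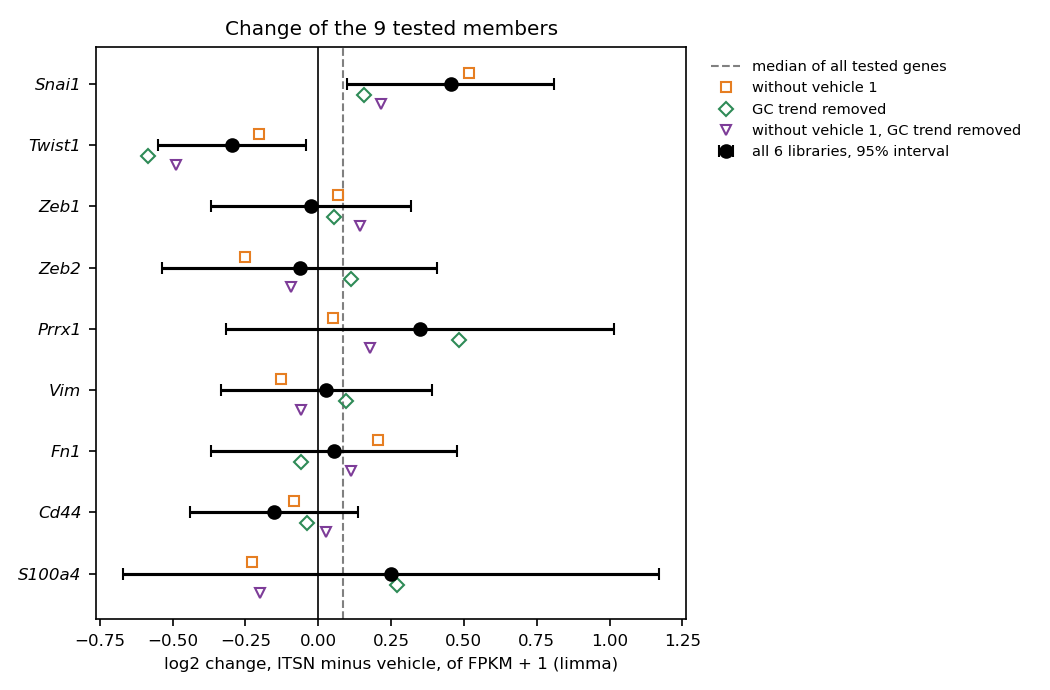
Log2 change, ITSN minus vehicle, of the 9 tested members (horizontal axis) with all 6 libraries and its 95% interval, and in 3 other settings (open symbols); the dashed line is the median of all tested genes, 0.09. The intervals of Snai1 and Twist1 do not hold 0, and the 4 values of each of Zeb1, Zeb2, Vim, Fn1, Cd44 and S100a4 fall on both sides of it.

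Ratios within a library do not depend on how the library was scaled, apart from the pseudocount. The log2 ratio of Vim to Krt18, the mesenchymal to the simple epithelial filament gene, was -0.09, 0.01 and -0.10 in ITSN 1, 2 and 3, against 0.17, 0.19 and 0.15 in vehicle 1, 2 and 3. All ITSN libraries lay below all vehicle libraries, vehicle 1 included. The mean was -0.06 ± 0.06 in ITSN and 0.17 ± 0.02 in vehicle (SD, n = 3 each), a difference of -0.23 (exact two-sided permutation p = 0.1, adjusted p = 0.3 over 3 ratios). After removal of the GC trend the difference turned to 0.05, and Vim and Krt18 differ in GC content (46.5% and 56.4%).

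The paralog ratios did not separate the groups. The log2 ratio of Twist1 to Twist2 averaged 3.46 ± 0.24 in ITSN and 3.83 ± 0.63 in vehicle (SD, n = 3 each), with an exact two-sided permutation p of 0.7 (adjusted p = 0.9). It was highest in vehicle 1, at 4.52, where Twist2 was near 0, and without that library the difference of -0.37 was -0.03. For Zeb1 to Zeb2 the ratio averaged -2.11 ± 0.33 in ITSN and -2.15 ± 0.49 in vehicle (SD, n = 3 each, exact p = 0.9, adjusted p = 0.9). Zeb2 exceeded Zeb1 in every library, and the sign of the difference of 0.04 changed with single libraries, from -0.15 without vehicle 2 to 0.32 without vehicle 1.

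Likeness of pattern was measured as the root mean square difference of centred log2 values over the 6 libraries, among 6474 genes with a mean of at least 5 FPKM. The gene nearest to Snai1 was Ifi27, an interferon-inducible gene (0.05 log2 units), at 24.0, 19.9 and 28.7 FPKM in ITSN 1, 2 and 3 and 17.4, 16.4 and 15.7 FPKM in vehicle 1, 2 and 3. The nearest to Twist1 was Mndal, of the interferon-inducible p200 family (0.03), at 43.1, 42.1 and 44.8 FPKM in ITSN and 61.5, 54.4 and 49.9 FPKM in vehicle. S100a4 was nearest to Ccr1, a chemokine receptor gene of leukocytes (0.07), Fn1 to Amotl1, an angiomotin-like gene (0.02), and Vim to Ndc1, a nuclear pore gene (0.01). The nearest to Twist2 was Nde1 (0.04), to Zeb1 Haus2 (0.08), to Zeb2 Ndufc1 (0.03), to Prrx1 Chchd10 (0.07) and to Cd44 Prkd3 (0.06). With 6 libraries and 6474 genes, near matches arise for any pattern, and these are descriptions only.

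The other genes of EMT were read from 9 lists. In limma none of their tested genes passed over all genes with all 6 libraries, where 0.0571% of genes did. At an unadjusted p under 0.05 the counts are given by list below, where 16.3% of all tested genes were higher and 4.57% lower in ITSN. By sign alone, 64.0% of all tested genes were higher in ITSN. The groups did not overlap for 29.1% of all tested genes (21.8% higher and 7.37% lower in ITSN). More genes passed in other settings: 5.49% of all tested genes without vehicle 1, 0.906% under trimmed-mean scaling, 0.759% with quantile-normalized values and 0.515% with mitochondrial genes removed. No gene of the lists passed when vehicle 1 was left out and the GC trend was removed too. The medians of 4 lists were close to 0 and turned sign in 1 to 5 of 16 settings: other EMT transcription factors (-0.17 to 0.01), Twist partners (-0.18 to 0.10), corepressors and ligases (-0.10 to 0.04) and the Cd44 list (-0.10 to 0.06). Of 17 other EMT transcription factors, 8 were listed and tested, with 2 higher and 6 lower in ITSN (median log2 change -0.07). Sox9, a factor of stem and progenitor cells, was at 13.9 ± 0.685 FPKM in ITSN and 18.4 ± 2.17 FPKM in vehicle (SD, n = 3 each, log2 change -0.37, limma adjusted p = 0.13), with groups that did not overlap, and it was the single gene of that list at an unadjusted p under 0.05. Snai2 is among those not listed.

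Twist proteins act as dimers with E proteins, and Id proteins bind the E proteins away. Of the 6 tested genes, 3 were higher and 3 lower in ITSN (median -0.06), with 2 higher and 1 lower at an unadjusted p under 0.05. The E protein gene Tcf3 was at 17.6 ± 1.52 FPKM in ITSN and 11.8 ± 1.96 FPKM in vehicle (log2 change 0.55, limma adjusted p = 0.10), and Tcf4 at 7.08 ± 1.20 FPKM in ITSN and 10.7 ± 2.66 FPKM in vehicle (-0.52, adjusted p = 0.20; SD, n = 3 each). The log2 change of Id3 was 0.49 (limma adjusted p = 0.16) and passed without vehicle 1 (0.64, adjusted p = 0.042). After removal of the GC trend, the changes of Tcf3, Id3 and Tcf4 were 0.22, 0.30 and -0.34. Id2, the fourth by p, was at 11.4 ± 6.67 FPKM in ITSN and 15.6 ± 0.378 FPKM in vehicle (adjusted p = 0.44).

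Corepressors and ubiquitin ligases of Snail and Zeb (17 tested) split into 8 higher and 9 lower in ITSN (median -0.02), with 1 of each at an unadjusted p under 0.05. Ctdsp1, a small phosphatase that is known to dephosphorylate Snail, was at 17.9 ± 0.997 FPKM in ITSN and 10.9 ± 0.940 FPKM in vehicle (SD, n = 3 each, log2 change 0.66, limma adjusted p = 0.068). It passed without vehicle 1 (adjusted p = 0.033), with mitochondrial genes removed (0.042) and under quantile normalization or trimmed-mean scaling (0.043 in both), and its change was 0.46 after removal of the GC trend (adjusted p = 0.20). For the histone deacetylase gene Hdac2 the log2 change was -0.26 (limma adjusted p = 0.20) and passed without vehicle 1 (-0.34, adjusted p = 0.046), but was -0.09 with the GC trend removed (adjusted p = 0.69). Fbxo11, a ligase subunit for Snail, had -0.35 (adjusted p = 0.24), and the corepressor gene Ctbp1 had 0.27 (adjusted p = 0.36); with the GC trend removed they had -0.18 and 0.06.

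Of 35 epithelial genes that EMT represses, 25 were listed and 21 tested. In ITSN, 16 of them were higher and 5 lower (median log2 change 0.26, against 0.09 over all tested genes), and 7 higher and 0 lower at an unadjusted p under 0.05. Among all tested genes, 64.0% were higher in ITSN, and 16.3% were higher and 4.57% lower at that unadjusted p. For 8 the ITSN libraries were all above the vehicle libraries, where 21.8% of all tested genes were. The plakophilin gene Pkp3, of desmosomes, was at 4.58 ± 0.095 FPKM in ITSN and 2.84 ± 0.126 FPKM in vehicle (SD, n = 3 each, log2 change 0.54, limma adjusted p = 0.071). The membrane serine protease genes Prss8 and St14 and the protease inhibitor gene Spint2 had log2 changes of 0.36, 0.30 and 0.36 (limma adjusted p = 0.11, 0.13 and 0.12). Without vehicle 1, Pkp3 (0.53, adjusted p = 0.038), Spint2 (0.43, 0.041) and the claudin gene Cldn4 (1.17, 0.044; chosen after its values were seen) passed. Cdh1 was at 6.16, 7.41 and 5.02 FPKM in ITSN 1, 2 and 3, against 3.37, 5.03 and 5.70 FPKM in vehicle 1, 2 and 3, and the groups overlapped (log2 change 0.35, SE 0.20, limma adjusted p = 0.37). Krt8, for which the annotation also holds the pseudogene Krt8-ps, and Krt18 had log2 changes of 0.28 and 0.26 (limma adjusted p = 0.44 and 0.41), with overlapping groups and vehicle 1 lowest for both. After removal of the GC trend the median of the list was 0.08, against 0.10 for all tested genes in that fit, and Pkp3 had 0.23, Prss8 0.16, Spint2 0.37 and St14 0.35.

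For the other mesenchymal and effector genes of EMT the list median depended on vehicle 1. Of 29 tested, 24 were higher and 5 lower in ITSN (median 0.29), with 4 higher and 0 lower at an unadjusted p under 0.05. Among all tested genes, 64.0% were higher in ITSN, and 16.3% were higher and 4.57% lower at that unadjusted p. Without vehicle 1 the median was -0.04. On the log2 scale, the change was 0.29 for the matricellular gene Cyr61 (limma adjusted p = 0.14), 0.51 for the tropomyosin gene Tpm2 (0.17) and 0.37 for the collagen gene Col5a1 (0.19). For 6 of the 29 genes, these 3 among them, all ITSN libraries were above all vehicle libraries, near the 21.8% of all tested genes. Without vehicle 1 the changes of these 3 genes were 0.26, 0.37 and 0.39, with no limma adjusted p under 0.05. With the GC trend removed they were 0.20, 0.34 and 0.11. Cdh2 was not listed.

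Lists built around single members gave no passing gene. Their counts by sign stand beside 64.0% of all tested genes higher in ITSN. Of 6 other intermediate filament and linker genes, 4 were higher in ITSN (median 0.11, 0 at an unadjusted p under 0.05): the log2 change was 0.38 for the linker gene Plec (limma adjusted p = 0.24), Lmna, of the nuclear lamina, 0.28 (0.34), Sync 0.18 (0.34) and Nes -0.13 (0.70). The median of these genes turned to -0.08 with the GC trend removed and to -0.01 with quantile-normalized values. It was below 0 in 3 of 16 settings, the lowest at -0.13. With the GC trend removed, Plec had 0.05, Lmna 0.18, Sync 0.04 and Nes -0.32. Of 10 fibronectin receptors and partners, 8 were higher (median 0.14), and the transglutaminase gene Tgm2 alone had an unadjusted p under 0.05, at 32.7 ± 3.33 FPKM in ITSN and 25.1 ± 2.61 FPKM in vehicle (SD, n = 3 each, log2 change 0.37, limma adjusted p = 0.15). The fibronectin receptor subunits Itga5 and Itgb1 had 0.30 and -0.19 (limma adjusted p = 0.25 and 0.38), and Tns1 had 0.27 (0.26). With the GC trend removed, the changes of Tgm2, Itga5, Itgb1 and Tns1 were 0.14, 0.07, -0.09 and 0.06.

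Of 16 ligands, linkers and sheddases of Cd44, 8 were higher and 8 lower in ITSN (median -0.00). The hyaluronidase gene Hyal1 was the single one at an unadjusted p under 0.05, at 1.61 ± 0.389 FPKM in ITSN and 0.686 ± 0.048 FPKM in vehicle (SD, n = 3 each, log2 change 0.62, limma adjusted p = 0.084), and Hyal2 had 0.27 (adjusted p = 0.29). Hyal1 reached 1 FPKM in the ITSN libraries alone. It passed the filter only through the group where it was high, so its p is no support for a difference. The actin linker gene Rdx had a change of -0.19 (limma adjusted p = 0.26) and Mmp14, a membrane protease gene that cleaves CD44, one of 0.21 (0.28). With the GC trend removed, Hyal1 had 0.53, Hyal2 0.10, Rdx -0.07 and Mmp14 0.07. Of 12 other S100 genes and partners of S100a4, 5 were higher and 7 lower (median -0.16). S100a1 alone had an unadjusted p under 0.05, at 17.5 ± 2.61 FPKM in ITSN and 22.0 ± 0.309 FPKM in vehicle (SD, n = 3 each, log2 change -0.33, limma adjusted p = 0.19). Anxa2, of an annexin that pairs with S100 proteins, had 0.25 (limma adjusted p = 0.32). S100a7a and the neutrophil gene S100a9 had changes of -0.81 and -0.51 (limma adjusted p = 0.43 and 0.48), and S100a9 was highest in vehicle 1, at 132 FPKM. The neutrophil marker sum, highest there too, holds S100a9 itself as its largest part, so the 2 are not separate observations.

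**Figure D5:**
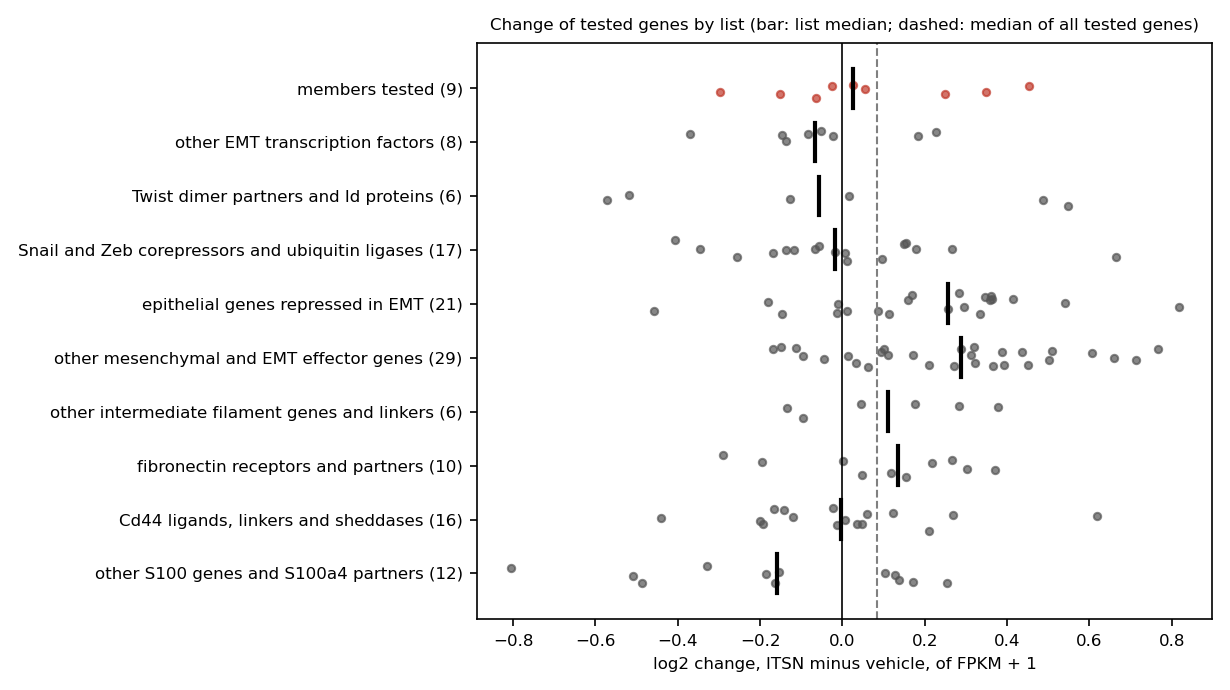
Log2 change, ITSN minus vehicle (horizontal axis), of every tested gene of the member set (red) and of the 9 other lists (grey), with the number tested in brackets; bars are list medians and the dashed line is the median of all tested genes, 0.09. The epithelial and the other mesenchymal lists have the highest medians, 0.26 and 0.29, and no gene shown passed the adjusted threshold.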

How the data were processed

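RNA sequencing of 6 mice (3 ITSN, 3 vehicle, grouped by the treatment label) was analysed from 1 table of FPKM per gene and library that the authors deposited, named FPKM per the file headers. The submitters' processing notes name mm10; aligner, quantifier and use of strand were not given in the sources used here. Per the labels' protocols, RNA was enriched for mRNA or depleted of rRNA and dUTP-marked. No gene in the table had both group means under 0.500 FPKM. Columns were matched to samples by description; for ITSN 3 the column carries the description's number, which is not that of the title, and the replicate number follows the title. Low values of single-transcript genes showed no multiples of a whole read (15.0% to 16.7% of 300 values within 0.05 of a whole number at the best step, 15.7% to 17.0% after jitter), so depth is unknown.

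Genes reaching 1 FPKM in 3 or more libraries were fitted as log2(FPKM + 1) in limma 3.58.1 (R 4.3.3; lmFit, eBayes with trend, two-sided), Benjamini-Hochberg adjusted over 12257 genes. The adjusted p-values and intervals of genes are limma's. GC content was that of the longest GENCODE M21 transcript, matched for 99.7% of genes, and its trend was a lowess curve (span 0.3) per library. Exact two-sided permutation tests compared 3 against 3 libraries. The limma fit was also run on simulated independent normal values with the same spread in both groups. These held no outlying library and no GC trend, so they do not show how the fit behaves on the real libraries. Alternatives were another pseudocount, other filters and scalings, GC removal, a replicate block and libraries left out; list results under these were added after seeing the data. Members, lists and tests were chosen with earlier results of these data known. Named genes were the members, Krt8, Krt18, Cdh1, the 4 of each list with the smallest p and the gene most like each member; 1 gene this rule names is not reported here. The rest was computed in Python 3.11.15 with scipy 1.17.1.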

Additional observations from a re-analysis of the deposited data

How the results depend on the processing

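No member passed limma's threshold in any of the settings run, and the count of members past it was 0 throughout. Of 151 values of members under other settings, 24 had a sign other than in the fit to all 6 libraries as deposited, 3 of them of Twist2, which has no test. Those outside the settings that leave out 1 library were -0.075 for Vim and -0.047 for Fn1 after trimmed-mean scaling, -0.060 and -0.033 for the same genes with mitochondrial genes removed, and 0.052 for Zeb1, 0.112 for Zeb2, -0.060 for Fn1 and -0.0096 for Twist2 after removal of the GC trend. Without vehicle 1 and with the GC trend removed, Zeb1 had 0.14, Vim -0.059, Cd44 0.028 and S100a4 -0.20. With 1 library left out in turn, the log2 change ran from -0.15 to 0.066 for Zeb1 and -0.25 to 0.066 for Zeb2. It ran from -0.13 to 0.13 for Vim, -0.081 to 0.21 for Fn1, -0.23 to 0.55 for S100a4 and -0.17 to 0.29 for Twist2. The sign held for Snai1 (0.32 to 0.57), Twist1 (-0.36 to -0.20), Prrx1 (0.050 to 0.58) and Cd44 (-0.22 to -0.053). The difference in the ratio of Vim to Krt18 ran from -0.26 to -0.21 with a library left out and was 0.048 after GC removal; that of Zeb1 to Zeb2 ran from -0.15 to 0.32 and was -0.060 after GC removal. The cause was not tested.

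The count of all genes past the threshold, 7 with all libraries, was 19 with a filter of 5 FPKM, 111 under trimmed-mean scaling, 93 with quantile-normalized values, 63 with mitochondrial genes removed and 19 without vehicle 1 and the GC trend. It ran from 1 to 673 with a library left out, the highest without vehicle 1 (410 higher, 263 lower). The split with all libraries was 6 higher and 1 lower; it was 64 and 47 under trimmed-mean scaling, 62 and 31 with quantile-normalized values and 43 and 20 with mitochondrial genes removed. Quantile normalization moved the median log2 change of all genes by -0.10. Across genes, the deviations of same-numbered libraries from their group means correlated at -0.00, -0.14 and 0.24 for numbers 1, 2 and 3. Those of libraries with unlike numbers correlated at -0.26 to 0.25. With 3 libraries per group, these values cannot tell whether the numbers pair the mice. With the replicate number as a block 2 genes passed, and no member; the ratios had exact sign-flip p-values of at least 0.25, the smallest that 3 pairs allow. Sample weights could not be fitted: the estimation stopped before it converged, with a weight of 1054 for vehicle 2 against 0.0432 for vehicle 1, and the 9734 genes it called are not used. Depth is unknown, so what it limits for low genes such as Twist2 cannot be stated.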
